A study of Mus musculus with 6 samples.

Results

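A set of 5 genes annotated as processed pseudogenes, each with the protein-coding gene it was copied from, was followed through RNA-seq of mouse gastrocnemius muscle. The 10 genes, 5 copies and 5 parents among 57010 genes counted, are the copies Gm3375, Gm13736, Atp6v0c-ps2, Gm14292 and Gm8121 and their parents Psmb5, Srp9, Atp6v0c, Wtap and Immp1l, in that order. They were taken by symbol, all 10 were found, and the copies had been picked with their difference between the 2 groups known. That difference is therefore given here as a description, without a test. The mutants were 3 homozygous Dysfprmd/Dysfprmd mice of the strain B6.A-Dysfprmd/GeneJ (BLAJ), which lack dysferlin, a protein of muscle membrane repair. The controls were 3 wild-type mice labelled C57BL/6. All were 3 months old, none was treated, and each animal gave 1 poly(A)-selected directional library. Mutant replicates 1 and 2 were female, and mutant replicate 3 and the 3 controls were male.

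A processed pseudogene, or retrocopy, arises when the messenger RNA of a gene is reverse transcribed and inserted elsewhere in the genome. It lacks the introns of its parent, usually lacks the parent's promoter, and often gathers mutations that break the reading frame. Because copy and parent can be nearly the same in sequence, a short read is often hard to place without a base that differs. Psmb5 codes for the catalytic beta subunit of the proteasome with chymotrypsin-like activity. Srp9 is a small subunit of the signal recognition particle, which brings ribosomes with secretory proteins to the endoplasmic reticulum. Atp6v0c is the proteolipid that forms the rotor ring of the V-ATPase, the proton pump of lysosomes. Wtap is the regulatory subunit of the complex that writes m6A methylation on RNA, and Immp1l is a peptidase of the mitochondrial inner membrane that trims imported proteins.

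In the GENCODE M21 annotation (GRCm38) the copies lie on other chromosomes than their parents. Gm3375 is on chromosome 7 and Psmb5 on 14, Gm13736 is on 2 and Srp9 on 1, and Atp6v0c-ps2 is on 6 and Atp6v0c on 17. Gm14292 is on chromosome 2 and Wtap on 17, and Gm8121 is on 5 and Immp1l on 2. Gm8121 overlaps the noncoding gene 4932441J04Rik on the opposite strand, and the other copies overlap no annotated gene. Stretches of 120 bases are printed below for each pair, with the few bases where copy and parent differ in capitals. Within a stretch only these bases tell the 2 sequences apart. A read pair can also be placed by bases outside the stretch or outside the aligned model. Each stretch is the part of the parent's coding sequence with the most such bases, read 5′ to 3′ from the annotated transcripts.
Gm3375: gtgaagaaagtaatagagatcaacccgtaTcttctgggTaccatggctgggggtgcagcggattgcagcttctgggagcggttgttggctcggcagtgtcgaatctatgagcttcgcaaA
Psmb5: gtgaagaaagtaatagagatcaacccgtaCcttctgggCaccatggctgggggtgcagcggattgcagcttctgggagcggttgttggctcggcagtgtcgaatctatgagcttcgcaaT
Atp6v0c-ps2: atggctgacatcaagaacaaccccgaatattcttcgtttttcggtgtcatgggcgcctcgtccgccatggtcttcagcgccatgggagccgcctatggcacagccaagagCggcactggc
Atp6v0c: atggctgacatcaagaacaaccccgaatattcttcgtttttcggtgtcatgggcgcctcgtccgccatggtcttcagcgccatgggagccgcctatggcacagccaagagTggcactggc
Gm14292: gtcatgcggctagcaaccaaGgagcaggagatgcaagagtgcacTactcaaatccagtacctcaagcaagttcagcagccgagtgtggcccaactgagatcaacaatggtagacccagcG
Wtap: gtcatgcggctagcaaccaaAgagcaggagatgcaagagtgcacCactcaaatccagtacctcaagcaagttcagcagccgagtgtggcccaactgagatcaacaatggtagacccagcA
Gm8121: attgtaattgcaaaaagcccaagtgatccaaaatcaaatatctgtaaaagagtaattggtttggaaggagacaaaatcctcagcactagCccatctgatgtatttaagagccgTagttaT
Immp1l: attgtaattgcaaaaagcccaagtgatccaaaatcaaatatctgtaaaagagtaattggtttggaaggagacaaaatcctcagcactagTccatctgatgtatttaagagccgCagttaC
Gm13736 and Srp9, with no difference: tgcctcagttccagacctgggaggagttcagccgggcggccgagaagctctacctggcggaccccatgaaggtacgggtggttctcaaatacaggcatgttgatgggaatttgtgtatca

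All 5 copies aligned to their parent over their whole annotated length and ran across the parent's exon junctions without a break, spanning 2 junctions in Gm3375, Gm13736 and Atp6v0c-ps2 and 4 in Gm14292 and Gm8121. Identity to the best matching coding transcript of the parent was 98.9% for Gm3375 (796 bases), 100% for Gm13736 (253 bases), 99.8% for Atp6v0c-ps2 (465 bases), 99.3% for Gm14292 (456 bases) and 99% for Gm8121 (499 bases). Gm3375 differed from Psmb5 at 8 bases and held 1 extra base, which shifts the reading frame. Atp6v0c-ps2 differed from Atp6v0c at 1 base of the coding sequence, T111C, counted from the A of the parent's start codon with the parent's base first. Gm14292 matched a short coding isoform of Wtap except for A249G, C273T and A348G, and Gm8121 differed from Immp1l at 5 bases. Outside Gm3375 no codon aligned to the parent's frame spelled a stop in these copies, and in Gm3375 1 of 263 aligned codons did.

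**Figure D1:**
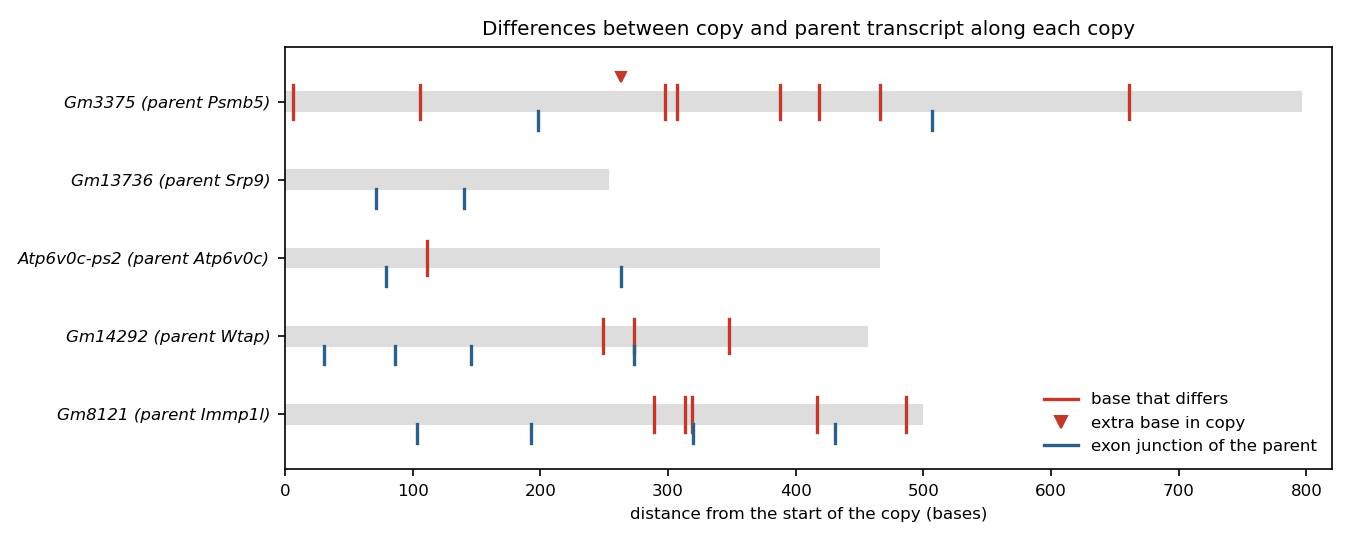
Differences between each copy (grey bar, 5′ end at the left, x axis in bases from the start of the annotated copy) and its parent's transcript. Red lines mark the 8, 0, 1, 3 and 5 bases that differ in Gm3375, Gm13736, Atp6v0c-ps2, Gm14292 and Gm8121, the red triangle the extra base of Gm3375, and blue lines the places where the parent has an exon junction.

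How much of a copy can be told from its parent differed between pairs. It was measured on single reads, and may be higher for read pairs, since either mate can place a pair. Of the windows of 61 bases, the length of 1 read, 371 of 736 in Gm3375 were absent from every annotated Psmb5 transcript, or 50.4%. The share was 36.9% in Gm14292, 37.8% in Gm8121, 15.1% in Atp6v0c-ps2 and 0% in Gm13736, where all 193 windows also occur in Srp9. The RefSeq models of the copies are longer than these, at 744 bases for Gm13736 and 1133 bases for Atp6v0c-ps2. The sources used here do not give the annotation release behind the deposited counts, so the counted models may reach past the ones aligned.

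Library totals ran from 35042245 to 43733641 read pairs on genes. Dysf, the mutated gene, stood at 15.8, 14.7 and 20.3 CPM (counts per 1e6 counts of the library, with the library total scaled by TMM, edgeR's normalization) in mutant replicates 1, 2 and 3, against 72.2, 99.7 and 145 CPM in control replicates 1, 2 and 3. The controls carried transcripts that go against their C57BL/6 label. Ifi202b had 0 counts in every mutant library and 308, 45 and 103 counts in controls, and H2-Ea-ps had 1, 0 and 0 counts in mutants and 95, 152 and 123 counts in controls. C57BL/6 mice are known to express neither. H2-Q1, another gene of the major histocompatibility region, had 0, 0 and 1 counts in mutants and 51, 51 and 55 counts in controls. Nnt, deleted in part in C57BL/6J, stood at 0.185, 0.358 and 0.407 CPM in mutants and 0.125, 0.136 and 0.102 CPM in controls. Unlike Ifi202b and H2-Ea-ps, Nnt was low in the controls and so does not go against their label. Strain and loss of dysferlin cannot be told apart in what follows. The 6 muscle fibre markers summed to between 119291 and 147671 CPM in mutants and between 117321 and 156928 CPM in controls, so the fibre markers were abundant in all libraries. The 5 neutrophil markers were all lower in mutants, with slightly overlapping sums of 2.75 to 8.56 CPM in mutants and 8.18 to 26.8 CPM in controls and none at 0 in all libraries. The 5 endothelial markers were all higher in mutants, with sums of 252.9 to 350.3 CPM in mutants and 225.3 to 243.6 CPM in controls. So were the 5 adipocyte markers, with overlapping sums of 233.4 to 395.0 CPM in mutants and 153.7 to 285.6 CPM in controls. Sums also overlapped for macrophage markers (81.3 to 139.8 CPM in mutants, 63.7 to 96.2 CPM in controls) and fibroblast markers (465.6 to 2680 CPM in mutants, 520.4 to 1957 CPM in controls). edgeR called none of these marker genes. Still, 4 of 5 neutrophil markers had an unadjusted edgeR p below 0.05, where 6.94% of all genes tested did. Groups did not overlap in 4 of these 5, where 12.1% of all genes did not. An unadjusted p below 0.05 was also seen in 1 of 5 adipocyte and 1 of 5 endothelial markers. The part of these cells in the results below was not tested. In bulk tissue fewer cells of a type and less RNA per cell cannot be told apart.

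All 5 copies stood far lower in the mutants than in the controls. The mean control level was 10.7 times the mean mutant level in Gm8121, the smallest gap, and 42.4 times in Gm3375, the largest. No copy had a mutant library that reached a control library, and the lowest control stood at 9.34 times the highest mutant in Gm8121 and at 24.2 times in Gm3375. Across 15589 genes tested, mutants lay below all controls in 6.08%, and edgeR called 0.186% lower at an adjusted p below 0.05, all 5 copies among them. DESeq2 called 1.08% of genes with an adjusted p, lower or higher, and again all 5 copies. Both females were mutants and every control was male, so with sex as a covariate the contrast rests on mutant replicate 3 alone. Calls of that fit are not given, and sex and group cannot be told apart there. Since the copies had been picked on the contrast of mutants and controls, nothing is read from the counts of calls above.

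Gm3375, the copy of the proteasome gene Psmb5, stood at 0.528, 0.386 and 0.712 CPM in mutant replicates 1, 2 and 3, against 17.2, 22.3 and 29.4 CPM in control replicates 1, 2 and 3. These rest on 20, 14 and 28 read pairs in mutants and 691, 984 and 1158 in controls. The group means were 0.542 ± 0.164 CPM in mutants and 23.0 ± 6.12 CPM in controls (SD, n = 3 each), and the log2 fold change was -5.39 (SE 0.32). It is the most counted of the copies and the one with the most bases that set it apart from its parent.

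Gm13736, the copy of the Srp9 coding sequence, stood at 0.211, 0.165 and 0.127 CPM in mutants, against 6.44, 4.96 and 5.92 CPM in controls. Its annotated model holds no base that differs from Srp9, and yet 258, 219 and 233 read pairs were given to it in controls and 8, 6 and 5 in mutants. The means were 0.168 ± 0.0421 CPM in mutants and 5.77 ± 0.752 CPM in controls (SD, n = 3 each), with a log2 fold change of -5.08 (SE 0.30). The 3 controls lay close together in this copy.

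Atp6v0c-ps2, the copy of the V-ATPase rotor gene, stood at 0.423, 0.744 and 0.509 CPM in mutants, against 8.46, 8.26 and 17.8 CPM in controls. Control replicate 3 held about as much as the other controls together. The means were 0.558 ± 0.166 CPM in mutants and 11.5 ± 5.46 CPM in controls (SD, n = 3 each), with a log2 fold change of -4.36 (SE 0.42).

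Gm14292, the copy of a short Wtap isoform, had 3, 4 and 3 read pairs in mutants, against 65, 54 and 136 in controls. The mutant libraries sat at the limit of detection, since 3 counts correspond to 0.0679 to 0.0826 CPM in these libraries. The levels were 0.0792, 0.110 and 0.0763 CPM in mutants and 1.62, 1.22 and 3.46 CPM in controls, and control replicate 3 was again the highest. The log2 fold change was -4.52 (SE 0.55).

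Gm8121, the copy of the mitochondrial peptidase gene Immp1l, stood at 0.158, 0.193 and 0.203 CPM in mutants, against 1.95, 1.90 and 2.08 CPM in controls. These are 6, 7 and 8 read pairs in mutants and 78, 84 and 82 in controls. Relative to their mean, the replicates of each group lay closest together here, at 0.185 ± 0.0235 CPM in mutants and 1.98 ± 0.095 CPM in controls (SD, n = 3 each), and the log2 fold change of -3.40 (SE 0.30) was the smallest of the 5. The authors' deposited table lists log2 fold changes of -5.41, -5.11, -4.37, -4.57 and -3.42 for Gm3375, Gm13736, Atp6v0c-ps2, Gm14292 and Gm8121.

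The order of the copies per kilobase depended on the gene model. It is also not corrected for how much of each copy can be told from its parent. In the aligned models that share of windows ran from 0% in Gm13736 to 50.4% in Gm3375. The order is therefore not a ranking of expression. On the aligned GENCODE models, Gm3375 stood at 28.9 ± 7.69 CPM per kb in controls, Atp6v0c-ps2 at 24.8 ± 11.7 and Gm13736 at 22.8 ± 2.97 CPM per kb (SD, n = 3), and neighbours in this order lay within each other's SD. Gm14292 at 4.61 ± 2.61 CPM per kb and Gm8121 at 3.96 ± 0.19 CPM per kb lay lower, and their difference was within the SD of Gm14292. On the longer RefSeq models the control levels were 26.4 ± 7.03 CPM per kb for Gm3375, 10.2 ± 4.82 for Atp6v0c-ps2, 7.76 ± 1.01 for Gm13736, 2.56 ± 0.123 for Gm8121 and 1.26 ± 0.715 CPM per kb for Gm14292 (SD, n = 3). Gm3375 then stood above the others beyond the SDs, and Gm8121 above Gm14292. In mutants the levels per kb of the GENCODE models ran from 0.194 ± 0.0412 CPM in Gm14292 to 1.20 ± 0.357 CPM in Atp6v0c-ps2 (SD, n = 3).

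**Figure D2:**
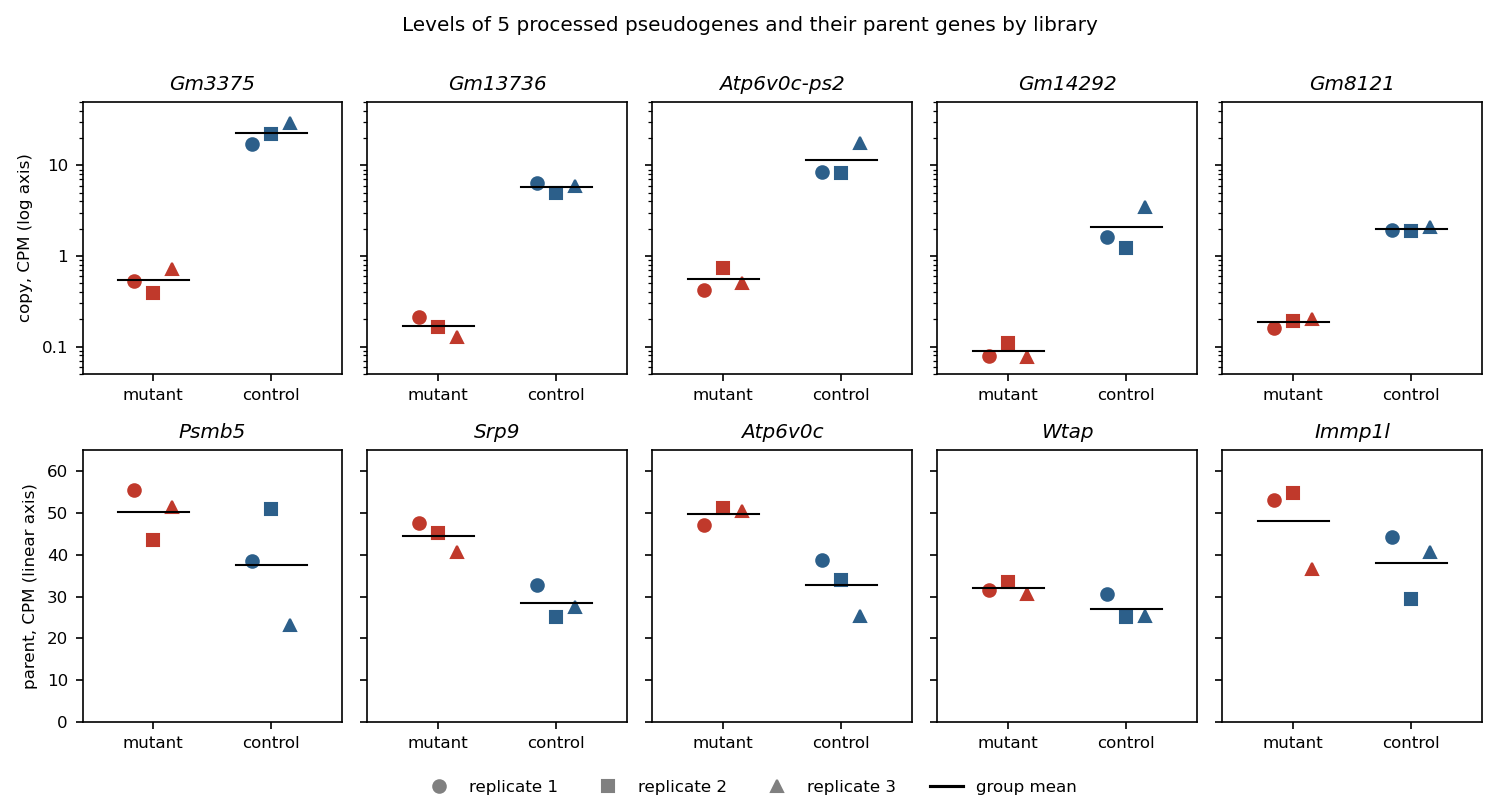
Level in CPM of each copy (upper panels, log axis) and of its parent (lower panels, linear axis from 0) in 3 mutant and 3 control libraries, with marker shape giving the replicate and the line the group mean. The copies are between 10.7 and 42.4 times higher in controls by their means, while the parents differ far less and overlap between groups in 3 of 5 cases.

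The parents had higher mean levels in mutants, by margins that were small beside those of the copies. Psmb5 stood at 55.4, 43.7 and 51.5 CPM in mutants, against 38.5, 50.8 and 23.2 CPM in controls, and the groups overlapped because of control replicate 2. Its log2 fold change was 0.42 (SE 0.27). Srp9 stood at 47.5, 45.2 and 40.7 CPM in mutants, against 32.7, 25.1 and 27.5 CPM in controls, with every mutant above every control and a log2 fold change of 0.65 (SE 0.14).

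Atp6v0c, at 47.2, 51.3 and 50.6 CPM in mutants, against 38.9, 34.1 and 25.4 CPM in controls, also had no overlap and a log2 fold change of 0.60 (SE 0.17). Mutants lay above all controls in 5.97% of genes tested, and 2 of the 5 parents were among them. Wtap was nearly level, at 31.6, 33.6 and 30.7 CPM in mutants and 30.7, 25.2 and 25.4 CPM in controls, with a log2 fold change of 0.24 (SE 0.13). Immp1l stood at 53.2, 54.8 and 36.5 CPM in mutants, against 44.1, 29.4 and 40.6 CPM in controls, with a log2 fold change of 0.34 (SE 0.22). The high Immp1l values came from the female mutants. With sex as a covariate, where only mutant replicate 3 is set against the controls, its log2 fold change was -0.06. No parent was called by edgeR, where 0.0128% of genes were called higher.

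The ratio of copy to parent read pairs, which needs no library size, separated the groups in every pair. Pairs that map to several places count for neither gene, so a ratio is not the ratio of the transcripts. For each 100 Psmb5 read pairs there were 0.953, 0.883 and 1.38 Gm3375 read pairs in mutant replicates 1, 2 and 3, against 44.8, 43.8 and 127 in control replicates 1, 2 and 3. In control replicate 3 the copy thus had more read pairs than its parent, 55.9% of both together (exact binomial 95% interval 53.7% to 58.0%). For each 100 Srp9 read pairs there were 0.444, 0.366 and 0.313 Gm13736 read pairs in mutants, against 19.7, 19.7 and 21.6 in controls. This ratio was the most even of the 5 among controls.

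Atp6v0c-ps2 had 0.895, 1.45 and 1.01 read pairs for each 100 of Atp6v0c in mutants, against 21.8, 24.3 and 70.0 in controls. Gm14292 had 0.250, 0.328 and 0.249 read pairs for each 100 of Wtap in mutants, against 5.28, 4.85 and 13.6 in controls. Control replicate 3 stood apart in both. Gm8121 had 0.298, 0.352 and 0.557 read pairs for each 100 of Immp1l in mutants, against 4.41, 6.46 and 5.13 in controls, with no control apart from the others. On the log2 scale, with 0.5 added to each count, mutants minus controls came to -5.86 for Gm3375 to Psmb5, -5.67 for Gm13736 to Srp9, -4.90 for Atp6v0c-ps2 to Atp6v0c, -4.49 for Gm14292 to Wtap and -3.67 for Gm8121 to Immp1l. Intervals and limits of this kind cover counting error only, since PCR copies of a read pair are not independent molecules.

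In mutants the residual shares were small in all 5 pairs. The copy made up 0.876% to 1.36% of the read pairs of both genes for Gm3375, 0.887% to 1.43% for Atp6v0c-ps2, 0.312% to 0.442% for Gm13736, 0.248% to 0.327% for Gm14292 and 0.297% to 0.554% for Gm8121. For Gm14292 in mutant replicate 3, with 3 read pairs, the exact binomial 95% interval ran from 0.0512% to 0.723%. No mutant library had a copy at 0.

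Control replicate 3 differed from the other controls in 3 pairs and not in the remaining 2, a pattern noticed in these values and not tested. Its ratio of copy to parent was 2.86 times the mean of control replicates 1 and 2 for Gm3375 to Psmb5, 3.04 times for Atp6v0c-ps2 to Atp6v0c and 2.68 times for Gm14292 to Wtap. For Gm13736 to Srp9 it was 1.09 times and for Gm8121 to Immp1l 0.945 times that mean. The parents Psmb5 and Atp6v0c were the lowest of the controls there, at 0.52 and 0.698 of the mean of the other controls. Wtap stood at 0.909 of that mean although its copy Gm14292 was at 2.43 times, and Srp9 stood at 0.951 and Immp1l at 1.10 times. Copy and parent added together came to 0.965 of the mean of the other controls for the Atp6v0c pair, 0.983 for the Wtap pair and 0.817 for the Psmb5 pair.

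Added together in this way, copy and parent differed much less between the groups than the copies did. The parent made up most of every sum except that of the Psmb5 pair in control replicate 3. The sum thus follows the parent by arithmetic, and a copy lower in mutants pulls it below the parent's own difference. Neither is a test, and the sums are given as a description. Read pairs that map to several places are missing from both genes, so a sum is not the whole output of copy and parent. Psmb5 and Gm3375 together stood at 55.9, 44.0 and 52.2 CPM in mutants, against 55.7, 73.1 and 52.6 CPM in controls, so the groups overlapped. The sum averaged 50.7 ± 6.09 CPM in mutants and 60.5 ± 11.0 CPM in controls (SD, n = 3 each), a log2 difference of -0.25 where Psmb5 by itself had 0.42. The 2 measures are not the same. A sum's value is the difference between group means of log2 summed CPM, and a parent's value is the edgeR fold change. For Atp6v0c and Atp6v0c-ps2 the sums were 47.6, 52.0 and 51.1 CPM in mutants, against 47.3, 42.3 and 43.2 CPM in controls. The highest control and the lowest mutant were almost level, and the log2 difference was 0.18 where Atp6v0c by itself had 0.60.

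The mean of Gm3375 was 22.4 CPM lower in mutants and that of Psmb5 12.7 CPM higher, while Atp6v0c-ps2 was 11.0 CPM lower and Atp6v0c 16.9 CPM higher. For Srp9 and Gm13736 the sum averaged 44.6 ± 3.53 CPM in mutants and 34.2 ± 4.58 CPM in controls (SD, n = 3 each), without overlap, and the log2 difference was 0.39. The sums of the Wtap and Immp1l pairs overlapped between groups, with log2 differences of 0.14 and 0.27.

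**Figure D3:**
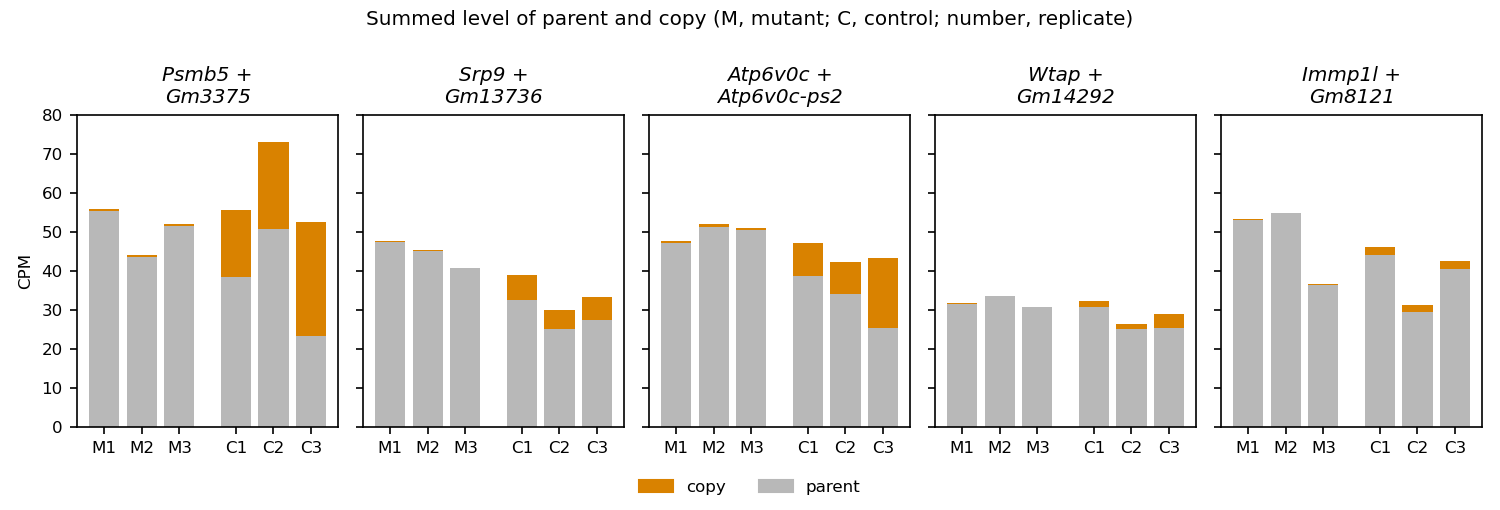
Level in CPM of parent (grey) and copy (orange) stacked, one bar per library, with mutants left of controls. The copy is a thin line on top of every mutant bar, and in control replicate 3 it makes up 55.9% of the read pairs of Psmb5 and Gm3375 and 41.2% of those of Atp6v0c and Atp6v0c-ps2.

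The reads behind these values came from the annotated strand. The deposited matrix was unstranded, but the strand columns put 99.7% to 100% of the read pairs of each copy in each library on its own strand, with 4 read pairs on the other strand against 5618 over all copies and libraries. For the parents the share was 98.7% to 100%. Transcription of 4932441J04Rik against Gm8121 therefore contributed no read pair to its count, as 0 lay on the other strand there.

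Other annotated copies of the same parents had almost no reads in any library. Pseudogenes whose best match among coding transcripts was one of the 5 parents numbered 5 besides the copies above, with identities of 92.0% to 97.2%. Atp6v0c-ps1 had 0, 1 and 0 read pairs in mutants and 1, 3 and 1 in controls, and Gm7381, a Wtap copy, had 3, 1 and 1 in mutants and 2, 0 and 2 in controls. Psmb5-ps and the Wtap copies Gm9068 and AC122453.2 had 0 in all 6 libraries. None had enough reads to enter the fit.

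Among 385 other tested processed pseudogenes with a parent that is no cytosolic ribosomal protein gene, mutants lay below all controls in 13.0%, against 6.08% of all genes tested. Their median log2 fold change was -0.23, against -0.00154 over all genes, while the 5 copies had between -5.39 and -3.40. edgeR called 6 of them lower and 1 higher. Those lower were Gm9770, Gm7887, Gm13443, Gm5909, Gm9825 and AC115117.1, with parents Ctdsp2, Pcnp, Glo1, Zc3h15, Rnps1 and Osgep, named here after their values were seen. Gm9825 stood at 0.185, 0.248 and 0.178 CPM in mutants, against 5.59, 5.70 and 10.7 CPM in controls. Control replicate 3 was the highest control there and in Gm7887, Gm13443 and AC115117.1. It was not in Gm9770 (4.52, 7.49 and 6.43 CPM in control replicates 1, 2 and 3) or Gm5909 (1.55, 1.54 and 1.22 CPM). The one called higher was Gm11702, which matches the dynactin gene Dctn1 over 69 bases and had 60, 64 and 73 read pairs in mutants, against 2, 1 and 2 in controls (log2 fold change 5.31, SE 0.40). Split at an identity of 98% to the parent, mutants lay below all controls in 13.5% of the closer and 12.4% of the more distant copies. Among 138 tested processed pseudogenes of ribosomal protein parents, mutants lay below all controls in 13.0%, with a median log2 fold change of -0.30. Of these edgeR called 6 lower and 0 higher. The shift was thus not particular to copies of non-ribosomal parents.

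The genes most like each copy over the 6 libraries were mostly annotated as pseudogenes too. Among 12709 genes with a mean of at least 1 CPM, ranked by Pearson correlation of log2(CPM + 0.5), Gm3375 was nearest to Rps2-ps10 (0.998) and Gm8730 (0.997). Atp6v0c-ps2 was nearest to Gm9825 (0.998) and AC115117.1 (0.997), Gm13736 to Rps2-ps10 (0.993) and Gm7729 (0.992), and Gm8121 to Tes3-ps (0.996), which is annotated as protein-coding, and Rps2-ps10 (0.995). Gm14292 was nearest to the antisense gene AC165951.1 (0.997) and the protein-coding gene Ly6c2 (0.995). Over 6 libraries in 2 groups such values follow mainly from the gap between the groups.

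The remaining genes of the parents' complexes gave the setting of the parents' own values. These lists were drawn up from known membership of each complex. In the core of the proteasome 15 of 16 other subunits were lower in mutants, where 7827 of all 15589 genes tested were. Their median log2 fold change was -0.17, against 0.42 for Psmb5 by itself. The sum of Psmb5 with Gm3375 was at -0.25. Adding a copy that is far lower in mutants pulls a sum down by arithmetic, so nothing is read from its side of 0. Both values leaned on single libraries, Psmb5 being at 0.70 without control replicate 2 and 0.16 without control replicate 3, and the sum at -0.10 without control replicate 2 and -0.15 without mutant replicate 2. None of the 16 was called by edgeR or DESeq2, and 1 had an unadjusted p below 0.05 where 6.94% of all genes did. Groups did not overlap in 4 of the 16, where 12.1% of all genes did not. Psmb1, a beta subunit, averaged 99.7 CPM in mutants and 140 CPM in controls (log2 -0.49, SE 0.13, edgeR adjusted p = 0.496), and the alpha subunit Psma7 86.5 and 117 CPM (log2 -0.44, SE 0.20, edgeR adjusted p = 0.749).

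In the signal recognition particle and its receptor 4 of 8 other tested genes were higher and 4 lower. Their median was -0.000906 on the log2 scale, against 0.65 for Srp9 and 0.39 for its sum with the copy. None was called by edgeR or DESeq2, and 0 had an unadjusted p below 0.05. Srp54a, one of several near-identical genes for the GTPase subunit and uncertain for that reason, stood at 6.15, 7.02 and 3.89 CPM in mutants and 0.324, 2.78 and 5.39 CPM in controls (edgeR adjusted p = 0.871). Srp54c of the same family had an edgeR adjusted p of 0.852 (log2 -0.17, SE 0.13).

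Of 20 other V-ATPase genes tested, 8 were higher and 12 lower, with a median log2 fold change of -0.05, against 0.60 for Atp6v0c and 0.18 for its sum with the copy. None was called by edgeR or DESeq2, and 1 had an unadjusted p below 0.05. That gene was Tcirg1, an a subunit of the membrane sector, at 6.96 CPM in mutants and 4.97 CPM in controls (log2 0.48, SE 0.20, edgeR adjusted p = 0.695). The catalytic subunit Atp6v1a averaged 27.3 CPM in mutants and 40.0 CPM in controls (log2 -0.55, SE 0.24, edgeR adjusted p = 0.733).

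Of 14 other genes that write, remove or read m6A, 9 were higher and 5 lower. Their median was 0.02, against 0.24 for Wtap and 0.14 for its sum with the copy. None was called by edgeR or DESeq2, and 0 had an unadjusted p below 0.05. The reader Ythdf1 differed by 0.15 on the log2 scale (SE 0.12, edgeR adjusted p = 0.881) and the demethylase Alkbh5 by 0.16 (SE 0.15, edgeR adjusted p = 0.892). Of 10 other mitochondrial peptidases and proteases, 2 were higher and 8 lower. Their median was -0.08, against 0.34 for Immp1l and 0.27 for its sum with the copy. There too edgeR and DESeq2 called 0, and 0 had an unadjusted p below 0.05, the 2 with the smallest p being Afg3l2 (log2 -0.21, SE 0.13, edgeR adjusted p = 0.814) and Xpnpep3 (log2 -0.24, SE 0.15, edgeR adjusted p = 0.834).

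**Figure D4:**
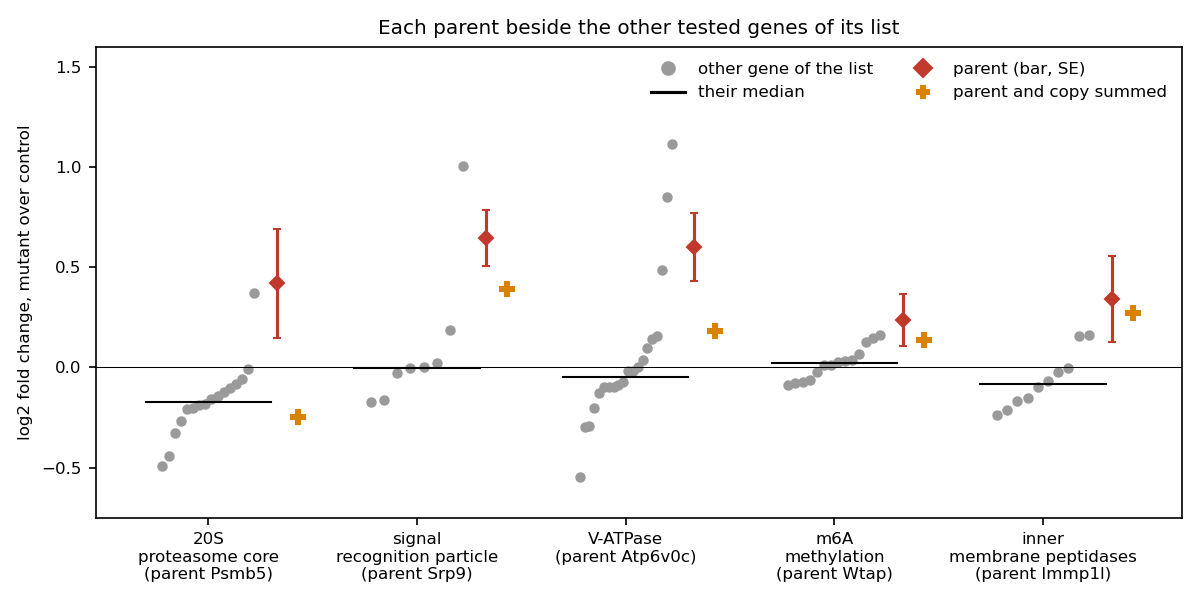
Log2 fold change, mutant over control, of each parent (red diamond, bar SE), of parent and copy summed (orange cross) and of the other tested genes of its list (grey points, line at their median). The parents lie above their list's median in all 5 lists. The sums are at -0.25, 0.39, 0.18, 0.14 and 0.27 for the Psmb5, Srp9, Atp6v0c, Wtap and Immp1l pairs. Adding a copy that is lower in mutants pulls each sum down by arithmetic. Values of sums are differences between group means of log2 summed CPM, and the others are edgeR fold changes.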

How the data were processed

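The count matrix the authors deposited is raw and equals, for every gene, the unstranded column of 1 file per library. Those files hold stranded columns as well. Per the submitters' processing notes the tools included STAR 2.7.11b and DESeq2 1.50.2, and the build was GRCm39. Pairs that map to several places, 5.83% to 9.78% of all pairs, and others naming no gene (18.5% to 22.3% in all) entered no library size. The authors also deposited a result table (log2 fold changes and their errors, test scores, p-values and a normalized mean signal per gene), used here for the copies' fold changes.

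The fit was edgeR 4.0.16 (R 4.3.3) with TMM, filterByExpr at a minimum count of 10 and its quasi-likelihood F-test for mutants over controls, adjusted by Benjamini-Hochberg over 15589 genes. CPM is counts per 1e6 TMM-scaled total counts, and the SE of a fold change is its size over the root of F. The procedure was tested on simulated data. Copy and parent were aligned locally with Biopython 1.88, and best parents of pseudogenes came from blastn 2.17.0, both on GENCODE M21, whose coordinates are not given because its build differs. Symbols matched 52029 of 57010 IDs. Where a symbol had several IDs, the coding one with the most counts was used.

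Members and lists were chosen with earlier results of these data known. Genes named beside the members are Dysf, strain markers, the 2 genes of smallest p in each complex, other copies of the 5 parents and the 2 genes most alike each copy. The other pseudogenes called by edgeR and their parents were named after their values were seen. Alternatives were RLE normalization, other filters, DESeq2 1.42.0, limma-voom (limma 3.58.1), sex as a covariate, a replicate block, strand-matched counts, males only, other pseudocounts and each library left out. Summed levels under these were added after seeing the data. No pair of libraries of a group agreed within sampling noise (chi-square per degree of freedom of 49.4 or more).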

Additional observations from a re-analysis of the deposited data

How the results depend on the processing

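The copies had been picked on this contrast, with the lowest control at 9.34 times the highest mutant or more. A change of direction was thus hardly possible for fold changes or ratios, and its absence is no support. The 5 copies kept their direction in all 75 values their fold changes took under the alternatives, with log2 values from -5.64 to -3.26. The copy-to-parent ratios kept theirs in all 50, and leaving out 1 library at a time gave -6.13 to -5.36 for Gm3375, -5.79 to -5.56 for Gm13736, -5.20 to -4.36 for Atp6v0c-ps2, -4.76 to -4.02 for Gm14292 and -3.93 to -3.49 for Gm8121. In males only, with 1 mutant, the ratio moved to -5.89 for Gm13736 and -3.16 for Gm8121. Among the parents, Immp1l turned to -0.06 in males only (-0.0575) and with sex as a covariate (-0.0592), and its sum with Gm8121 to -0.10 in males only. Both settings put mutant replicate 3 alone against the controls, so they are not separate checks. The cause of the turn was not tested. Leaving out 1 library at a time gave log2 fold changes of 0.16 (without control replicate 3) to 0.70 (without control replicate 2) for Psmb5 and 0.19 (without control replicate 2) to 0.51 for Immp1l. It gave log2 differences of the sums of -0.34 to -0.10 for the Psmb5 pair, 0.07 to 0.21 for the Wtap pair and 0.10 to 0.46 for the Immp1l pair, each nearest to 0 without control replicate 2. The Wtap sum was highest without control replicate 1 and the Immp1l sum without mutant replicate 3, and the Immp1l sum was 0.17 without mutant replicate 2.

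In males only and with sex as a covariate the contrast rests on mutant replicate 3 alone, so calls under these settings are not given. The 31 genes called became 201 in DESeq2 and 79 without a filter. Without single libraries the count ran from 6 to 49, at 49 without control replicate 2, 7 without mutant replicate 1 and 6 without mutant replicate 2, and leaving out either of these mutants left 2 copies called (3 without mutant replicate 3, 4 without control replicate 1, 3 with limma-voom). With a replicate block, 11 genes and 2 copies were called. Whether the shared numbers pair the samples was not settled. Deviations correlated at 0.173, -0.0607 and 0.178 in pairs 1, 2 and 3. Libraries of pairs 1 and 3 had each other as the best match, and those of pair 2 did not. For the ratios the block leaves the mean as it is by arithmetic (-5.86 for Gm3375 to Psmb5), so it tests nothing there. No list gene was called in any of the 75 runs on lists. With the strand columns exchanged, the lowest share on the annotated strand became 0%. Depth limits Gm14292 most, with 3 or 4 read pairs in each mutant library.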
